A study of Mus musculus with 6 samples.

Results

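Genes that detect foreign or misplaced nucleic acid in the cytosol, and genes that carry or limit that signal, were followed in HL-1, a line of mouse cardiac muscle cells that was established from an atrial tumour. The group holds 10 genes chosen by symbol, namely Ddx58, Ifih1, Dhx58, Zbp1, Mavs, Tmem173, Tbk1, Ikbke, Irf3 and Trex1. All 10 were present among the 22913 genes with reads, in 11 rows because Trex1 has 2, and all 11 rows were among the 12827 rows with enough counts to be tested. Polyadenylated RNA was sequenced from 3 libraries of cells given a control plasmid (Ctrl) and 3 of cells given an HSPA1A overexpression plasmid (HSPA1A). HSPA1A is the stress-inducible HSP70 chaperone, and the labels call the transfected gene human. Per the labels, both plasmids were delivered with Lipofectamine 2000 and the cells were harvested after 48 h. Every library thus comes from cells given plasmid DNA with a lipid carrier, and its uptake was not measured here. Untransfected cells were not analysed here. The labels do not say whether replicates came from separate cultures, so each p-value reflects only how these libraries spread, and part of that spread may be technical.

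As background, the cytosol has separate arms for sensing RNA and DNA that meet at shared kinases. RIG-I (encoded by Ddx58) and MDA5 (Ifih1) bind double-stranded or uncapped RNA and signal through MAVS on the mitochondrial surface, and LGP2 (Dhx58) is a relative that lacks the signalling domains and tunes the other two. On the DNA arm, cGAS makes a cyclic dinucleotide that activates STING (Tmem173). Both arms engage the kinases TBK1 and IKK-epsilon (Ikbke), which phosphorylate the transcription factor IRF3 to switch on type I interferon genes. ZBP1 binds Z-form nucleic acid and can trigger necroptosis, and the exonuclease TREX1 degrades cytosolic DNA. Several sensor genes, Ddx58, Ifih1, Dhx58 and Zbp1 among them, are themselves induced by interferon.

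The response of such genes to interferon runs through the interferon-stimulated response element, so its core, GAAA, then any 2 bases, then GAAA, was searched on both strands of RefSeq promoter windows of GRCm38.p6, each 300 bases long with 250 before and 50 after the gene start. Windows were found for 7 of the 10 genes, in 8 windows since Trex1 has 2. Dhx58, Tmem173 and Zbp1 had no window. The core was present in 2 of the 8 windows, those of Ddx58 and Ifih1, and in 3.44% of all 32851 windows. The 30 bases that hold each match are shown in the direction of the gene, with the match in capitals.

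Ddx58, chr4:40239804-40239833, minus strand: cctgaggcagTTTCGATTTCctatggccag

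Ifih1, chr2:62646206-62646235, minus strand: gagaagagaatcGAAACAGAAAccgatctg

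In Ddx58 the match lies on the opposite strand of the gene, as the reverse complement, and begins at base 3 counted from the RefSeq gene start as base 1. In Ifih1 it lies on the strand of the gene and begins at base 33. For Ddx58 this RefSeq start is not the start of the GENCODE M21 span given below. A match describes the letters in the window and is not evidence that a factor binds there.

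The libraries held between 23849656 and 26897086 counts. One library stood apart: on the first principal component HSPA1A replicate 2 lay at -15.1, the other HSPA1A libraries at 15.9 and 18.3, and the controls between -8.27 and -4.33. It was also nearer to the controls than to its own group. A chi-square statistic per degree of freedom between pairs of libraries was 8.82, 11.8 and 10.3 against the controls. Against HSPA1A replicates 1 and 3 the statistic was 28.1 and 23.7. The cause was not tested. The share of counts on the noncoding transcript Yam1 was 1.86%, 1.18% and 1.23% in the controls, in the order of their replicate numbers, and 2.70%, 1.58% and 2.53% in the HSPA1A libraries, with exact Clopper-Pearson 95% intervals within 0.00652 percentage points of each share that cover counting error only. Mouse Hspa1a had 10 to 17 reads in Ctrl and 11 to 20 in HSPA1A libraries (adjusted p = 0.795, edgeR's quasi-likelihood test). The transfected gene is human, and how many of its reads would fall on the mouse gene was not tested. These reads therefore do not check the labels, and no other value here shows the overexpression. Of the cardiac muscle markers, Tnnt2, Gata4, Tnnc1 and Nkx2-5 were present, at 6239, 4975, 609 and 552 reads over the 6 libraries. Myl4 had 175 and Ttn 149, while Tbx5 had 19, Ryr2 11, Tnni3 and Tbx20 7 each and Actn2 1. Myh6, Myl7, Mybpc3 and Hand2 were not listed. The fibroblast collagen genes Col3a1 and Col1a2 had more reads than any cardiac marker listed, 70037 and 45625. Other fibroblast markers varied widely, from 10958 reads for Col1a1 and 2744 for Dcn to 601 for Pdgfra and 269 for Pdgfrb. Postn had 83, Thy1 and Lum had 1 each, and Tcf21 was not listed. Summed over the listed markers, 11 of 15 cardiac ones held 78.2 to 87.7 CPM in Ctrl and 75.7 to 102.2 CPM in HSPA1A libraries, and 9 of 10 fibroblast ones 852.0 to 888.0 and 788.7 to 929.8 CPM, so neither sum separated the groups. The fibroblast sum rests mostly on Col3a1 and Col1a2, at means of 457 and 299 CPM over all libraries. Nucleic acid sensing is prominent in macrophages, whose lineage markers Ptprc and Tyrobp had 2 and 1 reads over the 6 libraries. Cd68 and Cd14, which other cells also express, had 710 and 2450.

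Per gene length the means of the sensing genes ran from 0.825 to 10.9 FPKM. On the authors' FPKM scale, Tbk1 was the highest of the group in every library, from 10.47 to 11.23 FPKM, and Irf3 followed at 7.15 to 9.24 FPKM. The main RNA sensor gene Ddx58, at 5.71 to 6.58 FPKM, was not separable from its adaptor Mavs, at 4.87 to 6.37 FPKM. The median tested gene had a mean of 6.20 FPKM, so Tbk1 and Irf3 stood above it, at the 63.0th and 56.7th percentiles, and the other genes below it. Tmem173 lay between 2.86 and 4.24 FPKM, apart from its neighbours in the order. Ikbke, Ifih1 and Zbp1 overlapped one another between 1.09 and 2.06 FPKM. Dhx58 was the lowest, from 0.64 to 1.05 FPKM, with no library reaching the lowest Zbp1 value. Both Trex1 rows fell inside this order, at means of 5.56 and 1.75 FPKM, and these levels depend on how reads were split between the rows.

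**Figure D1:**
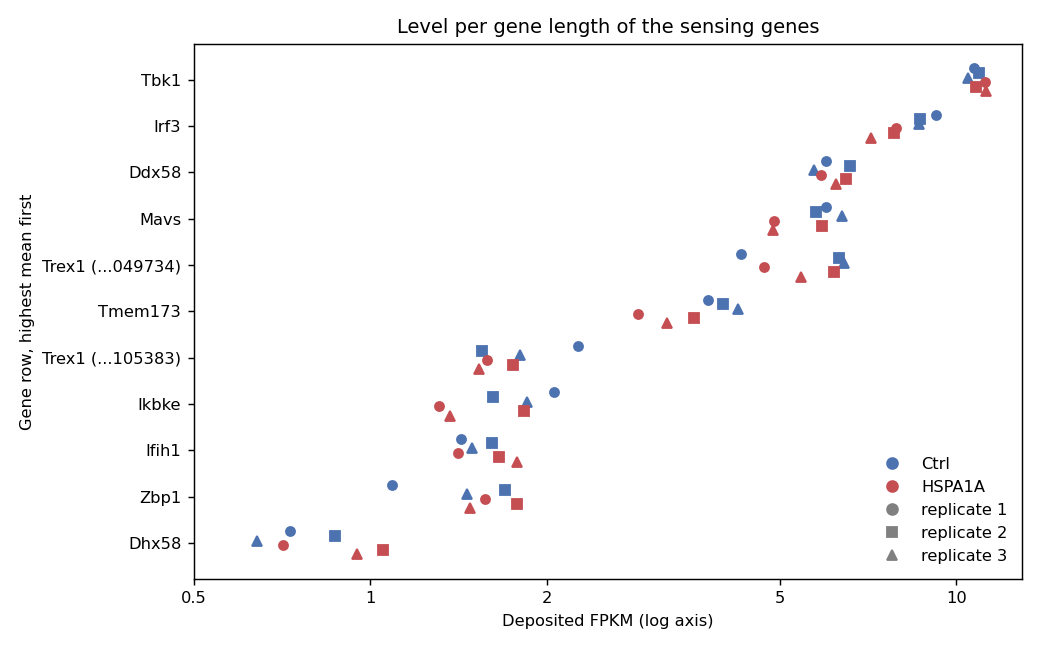
Deposited FPKM (log axis) of each sensing gene row in the 3 Ctrl and 3 HSPA1A libraries, ordered by mean, with the replicate shown by the symbol. Tbk1 lies above 10 FPKM in all 6 libraries and Dhx58 is the lowest row, at 0.64 to 1.05 FPKM.

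The comparison of HSPA1A with Ctrl cells asked whether the sensing genes differed in level. None of the 11 rows was called at an adjusted p under 0.05 by the quasi-likelihood test of edgeR, with p-values adjusted over all tested genes by the Benjamini-Hochberg method, where 0.179% of all rows were called. The smallest adjusted p was 0.528, for Tmem173. In RNA from whole cultures, fewer cells that express a gene and less of its RNA per cell cannot be told apart. At an unadjusted p under 0.05 there was 1 row of 11, against 8.59% of all rows, and DESeq2 called 0, against 0.491% of all rows, with 0 at an unadjusted p under 0.05, against 5.99%. By limma-voom and by limma on log2 FPKM 0 were called as well, against 0.164% and 0.117% of all rows. The groups did not overlap in 3 rows, against 14.5% of all rows. The median log2 fold change was 0.0010, beside 0.0029 over all tested rows, with 6 rows positive and 5 negative. Fitted differences between the groups ran from 0.0706% to 26.3% in size, and the 95% intervals reached from -32.6% (Ikbke) to 72.5% (Dhx58). No interval therefore held a doubling or a drop of the same factor.

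**Figure D2:**
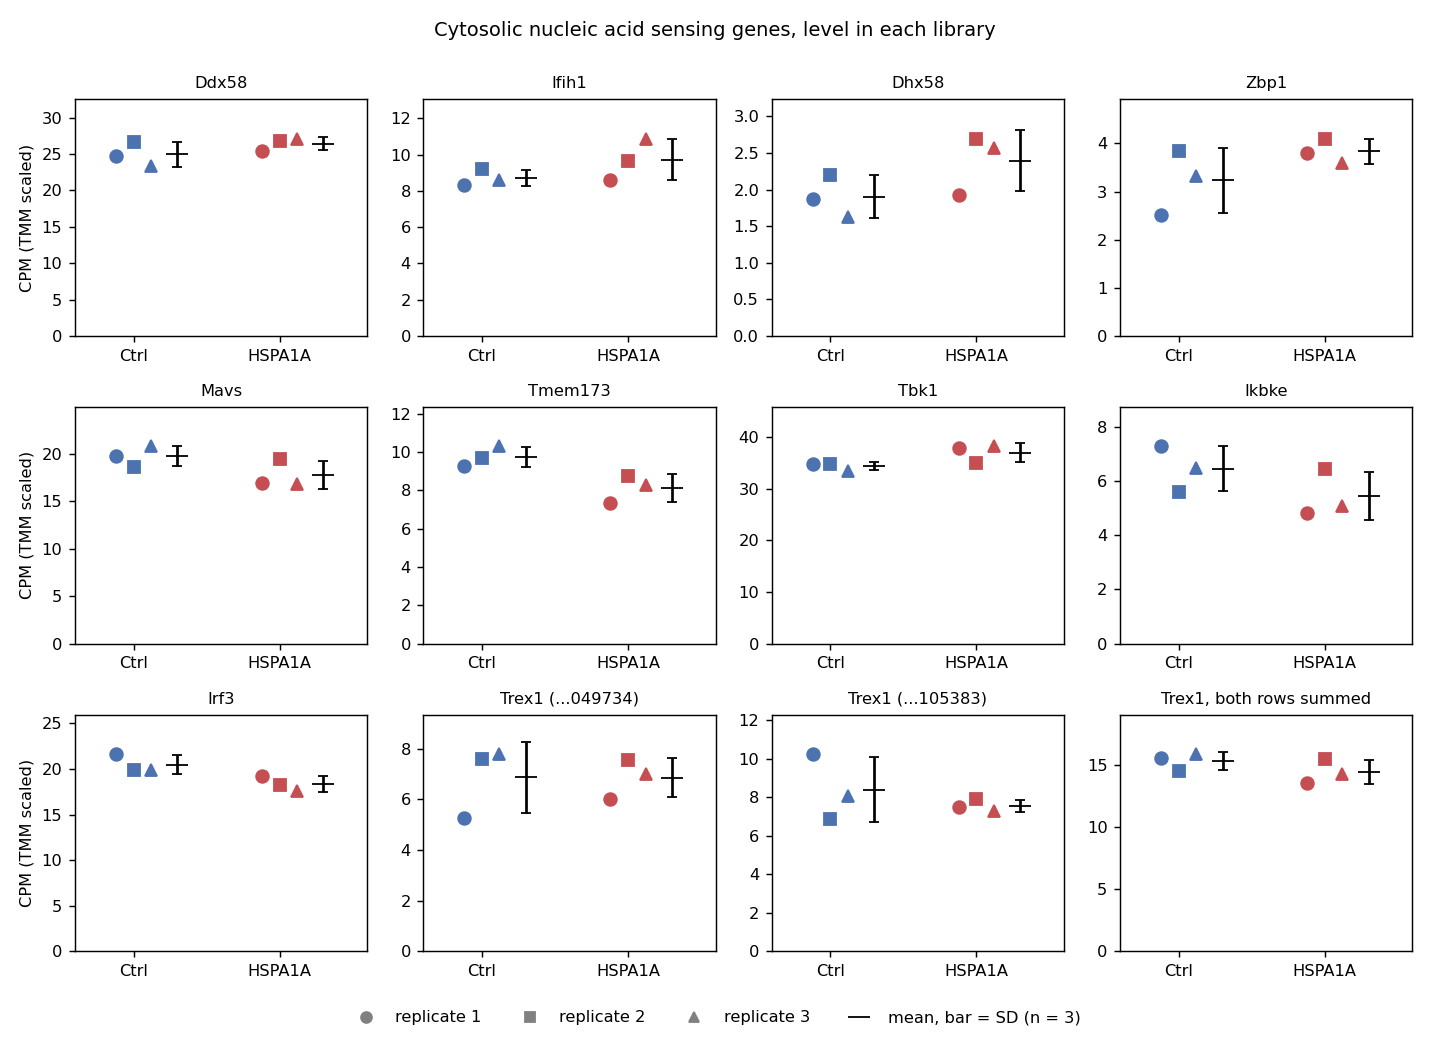
CPM scaled by TMM in each library for the 11 rows of the sensing genes and for the sum of the Trex1 rows, with the mean and SD (n = 3) of each group as black bars. The groups overlap in all panels except those of Tmem173 and Irf3, where every HSPA1A library is lower, and Tbk1, where every HSPA1A library is higher, by 34.86 against 34.78 CPM at the closest.

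Among the RNA sensors, Ddx58 (ENSMUSG00000040296, GRCm38 chromosome 4, 40203773 to 40239828, minus strand) varied least. In the order of the replicate numbers, used throughout, it stood at 24.8, 26.7 and 23.3 CPM in Ctrl and at 25.4, 26.8 and 27.1 CPM in HSPA1A libraries. The groups overlapped, since HSPA1A replicate 1 lay below Ctrl replicate 2. The log2 fold change was 0.085 ± 0.069 (SE; adjusted p = 0.777), with an interval from -4.67% to 18.0%. It was 0.040 without Ctrl replicate 3 and 0.14 without Ctrl replicate 2. Over the 6 libraries its coefficient of variation was 5.66%, a measure in which Tbk1 had the lowest value of the group, 5.33%.

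Ifih1 (chromosome 2, 62595798 to 62646255, minus strand), whose product senses long double-stranded RNA, had 8.34, 9.22 and 8.63 CPM in Ctrl and 8.62, 9.67 and 10.9 CPM in HSPA1A libraries. HSPA1A replicate 3 was the highest and HSPA1A replicate 1 lay inside the control range. Its log2 fold change was 0.16 ± 0.11 (SE; adjusted p = 0.731), and 0.072 without HSPA1A replicate 3. Dhx58 (chromosome 11, 100694884 to 100704271, minus strand) rested on few reads, 50, 55 and 43 in Ctrl and 45, 73 and 62 in HSPA1A libraries. Its levels were 1.88, 2.21 and 1.63 CPM in Ctrl and 1.92, 2.70 and 2.57 CPM in HSPA1A libraries, so HSPA1A replicate 1 again sat with the controls while the other HSPA1A libraries were above all of them. The log2 fold change, 0.34 ± 0.20 (SE; adjusted p = 0.676), was the highest of the group, and its interval from -7.47% to 72.5% was the widest. Dhx58 overlaps Dhx58os on the other strand, and reads of the pair cannot be told apart if the counting ignored strand, a setting that no source used here states.

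Zbp1 (chromosome 2, 173206612 to 173218923, minus strand) stood at 2.52, 3.85 and 3.33 CPM in Ctrl and 3.80, 4.10 and 3.60 CPM in HSPA1A libraries. Ctrl replicate 1 was the lowest library, and Ctrl replicate 2 lay within the HSPA1A range. Its log2 fold change of 0.25 ± 0.17 (SE; adjusted p = 0.732) was 0.098 without Ctrl replicate 1 and 0.39 without Ctrl replicate 2. The sensor genes Ddx58, Ifih1, Dhx58 and Zbp1 thus all had positive log2 fold changes, between 0.085 and 0.34, and none passed the test. They were not tested as a set, and they are not all the inducible genes of the group. Ikbke, called inducible below, had -0.24, and of all 11 rows 6 were positive and 5 negative. Over all tested rows, 51% of log2 fold changes were positive.

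The adaptors had negative log2 fold changes. Tmem173 (STING; chromosome 18, 35733679 to 35740554, minus strand), the adaptor of the DNA arm, stood at 9.28, 9.66 and 10.3 CPM in Ctrl and 7.34, 8.75 and 8.28 CPM in HSPA1A libraries. Every HSPA1A library lay below every control, with HSPA1A replicate 2 the nearest to them. The log2 fold change was -0.26 ± 0.10 (SE), a difference of -16.5%, with an unadjusted p of 0.0294 and an adjusted p of 0.528. Its interval ran from -28.7% to -2.17%. As 8.59% of all rows reached an unadjusted p under 0.05, 1 such row among 11 is close to the background.

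Mavs (chromosome 2, 131234063 to 131248025, plus strand), the adaptor of the RNA arm, had 19.8, 18.7 and 20.8 CPM in Ctrl libraries. In the HSPA1A libraries it had 16.9, 19.5 and 16.9 CPM. HSPA1A replicates 1 and 3 were below all controls, and HSPA1A replicate 2 lay inside the control range. That gave a log2 fold change of -0.15 ± 0.083 (SE; adjusted p = 0.635).

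The kinases that both arms share differed in level and in the sign of their log2 fold changes. Tbk1 (chromosome 10, 121546455 to 121586787, minus strand) had 34.8, 34.8 and 33.5 CPM in Ctrl and 37.9, 34.9 and 38.2 CPM in HSPA1A libraries. The groups did not overlap, though only by the margin between 34.86 CPM in HSPA1A replicate 2 and 34.78 CPM in Ctrl replicate 1. For Tbk1 the log2 fold change was 0.11 ± 0.059 (SE; adjusted p = 0.652). Ikbke (chromosome 1, 131254343 to 131279606, minus strand), the inducible relative of Tbk1, had 7.29, 5.61 and 6.47 CPM in Ctrl and 4.82, 6.46 and 5.09 CPM in HSPA1A libraries. HSPA1A replicates 1 and 3 were the lowest of the 6 libraries, and HSPA1A replicate 2 lay inside the control range. Its log2 fold change was -0.24 ± 0.15 (SE; adjusted p = 0.694). Leaving out Ctrl replicate 1 or HSPA1A replicate 1 brought the value to -0.14 or -0.16, and leaving out HSPA1A replicate 2 to -0.38. Ikbke overlaps Gm28914 and Gm28913 on the other strand.

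Irf3 (chromosome 7, 44997648 to 45002848, plus strand), the transcription factor that the kinases activate, had 21.6, 19.9 and 19.9 CPM in Ctrl and 19.3, 18.3 and 17.5 CPM in HSPA1A libraries. Every HSPA1A library lay below every control, and the lowest was HSPA1A replicate 3. The log2 fold change was -0.16 ± 0.073 (SE; adjusted p = 0.598), with an interval from -19.8% to 0.369%. Irf3 overlaps Bcl2l12 on the other strand. IRF3 is controlled by phosphorylation, which RNA levels do not show.

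Trex1, which encodes the main exonuclease for cytosolic DNA, was listed under 2 identifiers. ENSMUSG00000049734 matches Trex1 in the GENCODE M21 annotation of GRCm38 (chromosome 9, 109057933 to 109059734, minus strand), inside the span of Atrip on the same strand. ENSMUSG00000105383 was not found in that release, and its position is not given here. From the deposited counts and FPKM the authors' lengths come out at about 1237 bases for the first row and 4579 bases for the second. The second length exceeds the 1802 bases that Trex1 spans in GENCODE M21. The second row, and the sum of both, may therefore hold reads from outside Trex1 as annotated there. Atrip itself was listed with 1, 2 and 5 reads in Ctrl and 1 read in each HSPA1A library.

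The first Trex1 row had 5.26, 7.58 and 7.80 CPM in Ctrl and 6.02, 7.57 and 6.995 CPM in HSPA1A libraries. The second row had 10.3, 6.90 and 8.06 CPM in Ctrl and 7.51, 7.90 and 7.28 CPM in HSPA1A libraries. Ctrl replicate 1 was thus the lowest library in one row and the highest in the other. The first row held 33.9% of the reads of the pair in Ctrl replicate 1 (exact Clopper-Pearson 95% interval 29.3% to 38.7%), and 44.5% to 52.4% in the other 5 libraries, whose intervals began at 38.9% or above. Summed, which was done after the split had been seen, the rows gave 15.5, 14.5 and 15.9 CPM in Ctrl and 13.5, 15.5 and 14.3 CPM in HSPA1A libraries. The sum varied less than either row and the groups overlapped, with a log2 fold change of -0.082 ± 0.083 (SE; adjusted p = 0.821). The separate rows had log2 fold changes of 0.0010 ± 0.16 and -0.15 ± 0.14 (SE; adjusted p = 0.999 and 0.802), and without Ctrl replicate 1 these were -0.16 and 0.017, on the other side of 0 in each case.

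**Figure D3:**
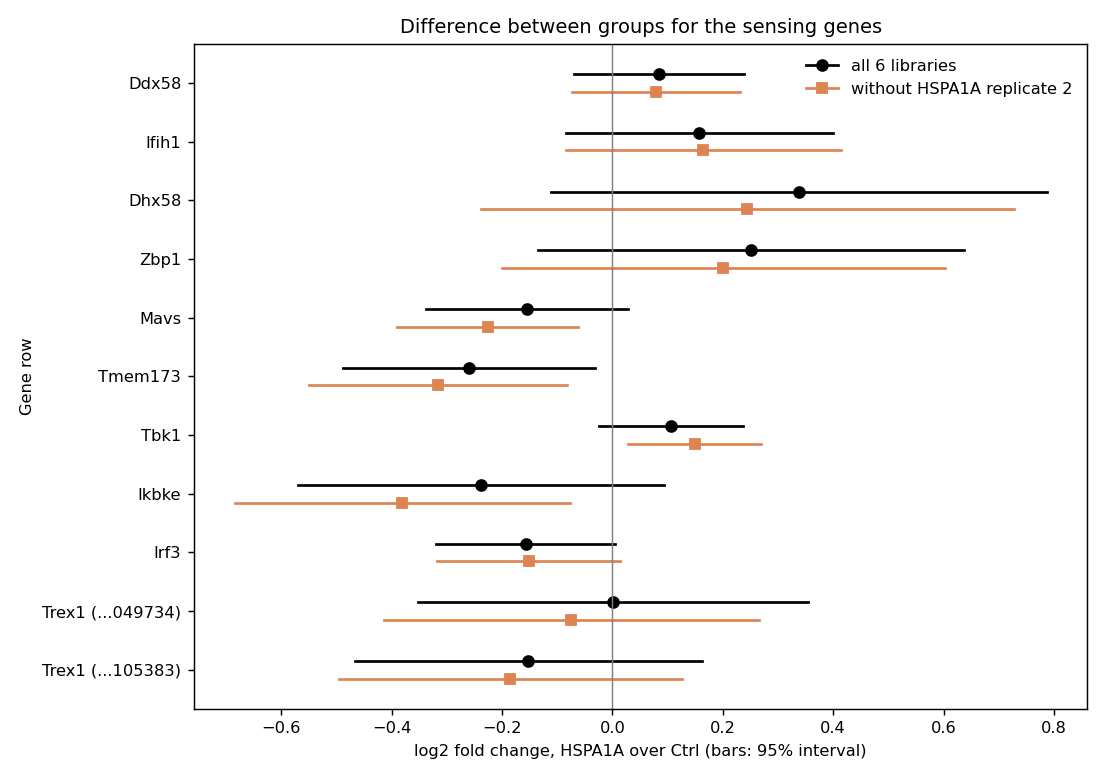
Log2 fold change of HSPA1A over Ctrl with its 95% interval for each row of the sensing genes, over all 6 libraries (black circles) and without HSPA1A replicate 2 (orange squares). The intervals of Mavs, Tbk1 and Ikbke include 0 in the first fit and not in the second, and no row was called in either. The library left out was singled out from the same counts, so the orange intervals may be too narrow.

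Because HSPA1A replicate 2 stood apart, each value was also taken without it. The library was singled out from these same counts, so p-values and intervals without it may overstate differences between the groups. In that fit 10.2% of all rows were called, and again 0 of the 11 rows of the sensing genes. At an unadjusted p under 0.05 there were 4 of the 11, against 24.8% of all rows. These were Mavs (log2 fold change -0.23 ± 0.077, adjusted p = 0.0780), Tmem173 (-0.32 ± 0.11, adjusted p = 0.0832), Ikbke (-0.38 ± 0.14, adjusted p = 0.108) and Tbk1 (0.15 ± 0.056, adjusted p = 0.112), each with its SE from edgeR. For Mavs and Ikbke the libraries that lay low, HSPA1A replicates 1 and 3, were also those with the highest Yam1 shares, 2.70% and 2.53%, and the part of either in the result was not tested. The sensor genes Ddx58, Ifih1, Dhx58 and Zbp1 stayed positive without HSPA1A replicate 2, at 0.078, 0.16, 0.24 and 0.20. Of all 11 rows, 5 were positive and 6 negative in that fit.

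Likeness to Ddx58 was taken as the root mean square difference of log2 CPM over the 6 libraries, each gene centred on its own mean, among 9716 other genes of at least 5 CPM. The closest were Dolk, Hook2, Ift20, Gm12940 and Panx1, at 0.021 to 0.026. Of the sensing genes, Tbk1 was the closest at 0.071 and Ifih1 next at 0.087, while Ikbke was the farthest at 0.25. Since Ddx58 itself deviated from its mean by only 0.076 on this measure, and the median gene lay 0.11 away, closeness here mainly says that a gene varied little.

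Other genes of the pathway, in 7 lists, were taken from the same fit. Of the other RNA and DNA sensors, 26 were tested and 0 were called by edgeR, DESeq2, limma-voom or limma on FPKM. Their median log2 fold change was 0.047 with 22 of the 26 above 0, and 3 rows had an unadjusted p under 0.05, all higher, against 4.33% of all rows. Pyhin1, a DNA-binding PYHIN family gene, stood at 2.57 ± 0.33 CPM in Ctrl and 3.77 ± 0.43 CPM in HSPA1A libraries (mean ± SD of 3 libraries; log2 fold change 0.56 ± 0.17 SE, adjusted p = 0.426, edgeR). Dhx9, which encodes a nuclear RNA helicase, stood at 102 ± 3.7 and 115 ± 2.3 CPM. Mb21d1, the gene of cGAS, was named outside the naming rule as the sensor upstream of STING. It had 202, 162 and 173 reads in Ctrl and 184, 166 and 176 in HSPA1A libraries, at 6.88 ± 0.62 and 7.09 ± 0.88 CPM. Its interval ran from -15.4% to 24.9%.

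The regulators of each arm showed no call by edgeR. Of 27 tested regulators of the RIG-I-like receptors, 13 were positive and 14 negative, with 1 higher and 2 lower at an unadjusted p under 0.05, against 4.33% and 4.26% of all rows. Nlrc5, which encodes a NOD-like receptor family member, stood at 21.3 ± 0.8 CPM in Ctrl and 25.2 ± 1.9 CPM in HSPA1A libraries. Cyld, a deubiquitinase gene that restrains the pathway, stood at 45.8 ± 1.2 and 40.2 ± 2.0 CPM (adjusted p = 0.434 and 0.433, edgeR). Of 27 STING pathway regulators, 1 was higher and 2 lower at that level, with a median of -0.071. Usp18, which encodes an interferon-induced protease that removes ISG15 and dampens interferon signalling, had 43.0 ± 7.9 CPM in Ctrl and 65.7 ± 8.3 CPM in HSPA1A libraries. Its log2 fold change of 0.61 ± 0.13 (SE) did not pass edgeR's test (adjusted p = 0.146) and passed with DESeq2 (adjusted p = 0.000101). Usp18 also passed in edgeR with no filter on low counts (adjusted p = 2.05e-15) and without HSPA1A replicate 2 (adjusted p = 0.000449). With no filter its log2 fold change was 0.60, so the far smaller adjusted p did not come from a larger difference. That fit included rows with very few reads and called 205 of 22913 rows, and its p-values should not be read as stronger evidence. In 14 of the 17 alternatives it did not pass. Rhbdf2, the gene of the STING trafficking factor iRhom2, stood at 18.2 ± 0.4 and 14.6 ± 1.2 CPM (adjusted p = 0.325, edgeR).

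Downstream, 24 kinase scaffold and adaptor genes were tested with 0 called by any of the 4 tools. At an unadjusted p under 0.05 in edgeR, 0 were higher and 2 lower, against 4.33% and 4.26% of all rows. Mib2, a ubiquitin ligase gene, stood at 51.0 ± 1.3 CPM in Ctrl and 43.1 ± 3.9 CPM in HSPA1A libraries, and the kinase gene Irak1 at 84.1 ± 2.4 and 77.7 ± 1.3 CPM. Among 13 tested genes of interferon regulatory factors and interferon signalling, 0 were called by any of the 4 tools. At an unadjusted p under 0.05, 1 was higher and 0 lower, against the same shares of all rows. That gene, Irf7, the interferon-induced relative of Irf3, had 26.2 ± 5.9 CPM in Ctrl and 34.3 ± 4.5 CPM in HSPA1A libraries, and the groups overlapped. Ifnb1, the interferon gene that IRF3 drives, had 2, 2 and 0 reads in Ctrl and 1, 3 and 2 reads in HSPA1A libraries, too few for a comparison. Of 18 tested nucleases and other enzymes that limit self nucleic acid, 0 were called by any of the 4 tools. At an unadjusted p under 0.05, 1 was higher and 1 lower, again against 4.33% and 4.26% of all rows. Rnaseh2b, a subunit gene of the RNase that cleaves RNA in hybrids with DNA, stood at 21.03 ± 1.47 and 24.01 ± 1.94 CPM, and the RNA exosome helicase gene Skiv2l at 45.0 ± 1.5 and 41.2 ± 1.4 CPM in Ctrl and HSPA1A libraries.

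At the far end of the pathway, 2 of 28 interferon-induced antiviral effector genes were called higher and 0 lower by edgeR, against 0.0234% and 0.156% of all rows. They were Ifi44, at 34.1 ± 4.0 CPM in Ctrl and 50.4 ± 4.3 CPM in HSPA1A libraries (adjusted p = 0.0478), and Ifi27l2a, at 45.0 ± 4.8 and 65.4 ± 5.9 CPM (adjusted p = 0.0483). DESeq2 called 5 higher, against 0.203% of all rows, limma-voom 1 and limma on FPKM 0. At an unadjusted p under 0.05 in edgeR there were 11 higher and 0 lower, against 4.33% and 4.26% of all rows. The median of the list was 0.19 on the log2 scale, beside 0.0029 over all tested rows. The list did not move as one, with 20 log2 fold changes positive and 8 negative, from -0.35 to 0.80. The log2 fold changes of Ifi44 and Ifi27l2a were 0.56 and 0.54. Over the 17 alternatives they ran from 0.47 to 0.65 for Ifi44 and from 0.46 to 0.61 for Ifi27l2a. Both genes were also called by DESeq2 (adjusted p = 8.97e-06 and 9.20e-06) and by edgeR with no filter on low counts (7.09e-12 and 1.02e-11). With no filter their log2 fold changes were no larger, at 0.557 and 0.531, and 205 of 22913 rows were called. The far smaller adjusted p of that fit should therefore not be read as stronger evidence. Both calls ended in edgeR with DESeq2-type size factors (adjusted p = 0.0502 and 0.0515), with the replicate block (0.0851 and 0.0998), on library totals alone (0.0623 and 0.0864), with the filter of 5 CPM in 3 libraries (0.0594 and 0.0708) and in each limma fit of FPKM (0.172 to 0.213). Ifi44 was no longer called without Ctrl replicate 1 or 3 or HSPA1A replicate 1 or 3, and Ifi27l2a without any 1 of the libraries except HSPA1A replicate 2. Whether this list differed from the sensing genes was not tested.

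**Figure D4:**
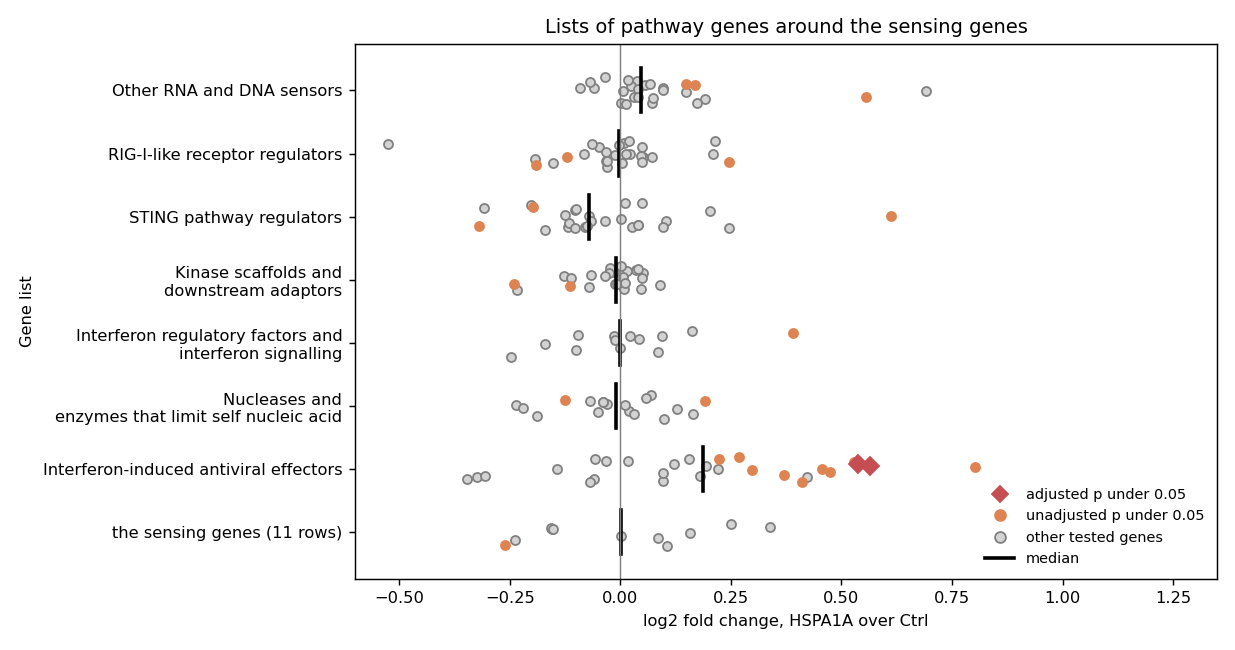
Log2 fold change of HSPA1A over Ctrl for each tested gene of the 7 pathway lists and for the 11 rows of the sensing genes, with medians as black lines. The 2 called genes, Ifi44 and Ifi27l2a, are among the interferon-induced effectors, whose median is 0.19, and the median of the sensing genes is 0.0010.

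Without HSPA1A replicate 2, where 5.27% of all rows were called higher and 4.94% lower, 3 of 26 other sensors were called higher and 0 lower, namely Dhx9, Ifi203 and Mndal. Of 28 effectors, 8 were higher and 0 lower. The kinase scaffold list had 0 higher and 3 lower of 24 (Ikbkg, Mib2 and Ripk3), the STING regulators 2 higher and 3 lower of 27, and the RIG-I-like receptor regulators 2 higher and 1 lower of 27. Tyk2 was the only gene called among the 13 of interferon signalling, as lower, and Rnaseh2b the only one among the 18 nucleases and related enzymes, as higher. Ifi203, Mndal, Ikbkg, Ripk3 and Tyk2 were named after their values were seen. All calls without HSPA1A replicate 2 carry the limit that this library was singled out from the same counts.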

How the data were processed

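The 6 libraries were made with a stranded mRNA kit and read from both ends, per the labels' protocols. GRCm38, TopHat2, bcl2fastq and edgeR appear in the submitters' processing notes without roles, and no source used here states the counter, its strand setting or the annotation. The authors deposited read counts per gene and FPKM for 22833 genes, rounded. Counts were normalised by TMM in edgeR 4.0.16 (R 4.3.3) after filterByExpr (minimum count 10, total 15) and compared with glmQLFit and glmQLFTest at an adjusted p of 0.05. Printed CPM are scaled by TMM. The fit was tested on simulated data.

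GENCODE M21 gave coordinates for 10 of the 11 rows. The alternatives used limma 3.58.1, DESeq2 1.42.0, other scalings and filters, log2 of FPKM plus 1 or 0.1, a replicate block and each library left out. Figures were drawn with matplotlib 3.10.9.

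The members and lists were chosen with earlier results of these data known. All members are named. From each list, up to 3 called genes, or else the 2 with the smallest p, are named. One gene that this rule names is not reported here.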

Additional observations from a re-analysis of the deposited data

How the results depend on the processing

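None of the 11 rows was called in any of the 17 alternatives, of which the sum of the Trex1 rows was chosen after seeing the data. All genes but Trex1 kept the sign of their log2 fold change in every alternative that tested them; the filter of 5 CPM in 3 libraries left out Dhx58 and Zbp1. Positive values were smaller on log2(FPKM + 1), at 0.023 for Ddx58, 0.058 for Ifih1, 0.12 for both Dhx58 and Zbp1 and 0.043 for Tbk1, and on library totals Ddx58 was 0.049 and Tbk1 0.069. Of the negative ones, Mavs and Irf3 were lower on log2(FPKM + 1), at -0.18 and -0.19. Tmem173 and Ikbke were nearer to 0 there, at -0.25 and -0.19. On library totals Mavs, Irf3, Tmem173 and Ikbke were all lower, at -0.19, -0.19, -0.30 and -0.27. The first Trex1 row, at 0.0010 in the fit reported, was -0.00035 with DESeq2-type size factors, -0.034 on library totals, -0.0019 in DESeq2 and -0.0058 with no filter. On log2 FPKM it was -0.041 with a pseudocount of 1, with or without a minimum mean of 1 FPKM, and -0.045 with 0.1. Leaving out single libraries moved it between -0.16 and 0.10, and the second Trex1 row between -0.27 and 0.017. The median over the rows was -0.15 with the 5 CPM filter, which tested 9 rows, -0.083 with a mean of at least 1 FPKM, and -0.074 to 0.085 with a library left out. Over all genes 23 were called, against 63 by DESeq2, 205 with no filter, 15 in each fit of FPKM, and 10 to 1323 with a library left out, the last without HSPA1A replicate 2; the cause was not tested. With the replicate number as a block, 16 genes and 0 of the sensing genes were called, and the median was 0.0058. Same-numbered libraries did not deviate together (correlations across genes of -0.10, -0.0015 and 0.085), so the numbers were not taken to pair them. Low counts limit Dhx58 and Zbp1 most.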

Other observations

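The balance of the kinases differed among libraries. The ratio of Tbk1 to Ikbke in FPKM was 5.21, 6.75 and 5.66 in the controls and 8.54, 5.90 and 8.20 in the HSPA1A libraries, in the order of their replicate numbers, a mean of 5.87 ± 0.79 against 7.55 ± 1.44 (SD, n = 3 each). HSPA1A replicates 1 and 3 were above all controls and HSPA1A replicate 2 lay inside their range. An exact two-sided permutation test of the log2 count ratio gave p = 0.2, and a design of 3 against 3 cannot go below 0.1. This ratio was chosen after the values of the 2 genes had been seen.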
